A study of Mus musculus with 24 samples.

Results

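The collagen genes described here are the 42 of 54087 gene symbols in the count table that follow the collagen naming pattern (Col, a type number, the letter a, and a chain number), leaving out Col7a1 and Col17a1, which are collagens of the dermal-epidermal junction. RNA-Seq measured them in skin taken from E18.5 mouse embryos, where E gives the embryonic day. WT embryos were Dsg1+/+, HET embryos were Dsg1+/- and KO embryos were Dsg1-/-. The mutant allele is a CRISPR/Cas9 deletion of the tandem desmoglein 1 genes Dsg1c, Dsg1a and Dsg1b on chromosome 18, made in C57BL/6J zygotes, and the line descends from a single backcrossed founder. Per the methods of the study the skin was dorsal and both sexes were used. The 24 libraries (8 per genotype) were summed by title number into 15 columns, 5 per genotype, which are called replicates below. Their titles have 2 forms, called title series 1 (9 libraries) and title series 2 (15 libraries, with the prefix JK). WT replicates 1 and 5, HET replicates 4 and 5 and KO replicates 4 and 5 rest on 1 library each, from title series 2. The other columns sum 2 libraries, 1 of each series. The labels do not say what the title number stands for, so p-values measure the spread between these columns.

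Collagens are the main structural proteins of the extracellular matrix. Each chain holds stretches in which glycine opens each triplet of residues, written Gly-X-Y, and chains wind around each other along these stretches. Fibrillar collagens build the tensile fibers of the dermis, type IV chains form the sheet of basement membranes, type VI chains form beaded filaments around cells, and the FACIT collagens (fibril-associated collagens with interrupted helices) sit on the surface of fibrils. Multiplexins lie in basement membrane zones, the short chain types VIII and X form networks, and the transmembrane types XIII, XXIII and XXV are anchored in cell membranes. In skin most fibrillar collagen is made by dermal fibroblasts.

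The glycine repeat is written directly in the exons. In many fibrillar collagen genes an exon of 54 bases encodes 6 complete Gly-X-Y triplets, and such exons are shown here because they hold the repeat unit that the classes share. They are not equally usual in each gene: in Col4a1 2 of the 45 coding exons between its first and last repeat stretch, breaks included, have this length. Each line gives the first 54-base exon within the longest uninterrupted repeat of that gene, read 5′ to 3′ on the coding strand, with the glycine codon that opens each triplet in capitals. The exons lie on the GRCm38 build (GENCODE vM21): Col1a1 coding exon 8 at chr11:94939904-94939957 (plus strand), Col3a1 coding exon 6 at chr1:45325360-45325413 (plus), Col4a1 coding exon 7 at chr8:11245211-11245264 (minus), Col6a1 coding exon 9 at chr10:76719623-76719676 (minus), Col12a1 coding exon 56 at chr9:79612916-79612969 (minus) and Col14a1 coding exon 38 at chr15:55472927-55472980 (plus).
Col1a1: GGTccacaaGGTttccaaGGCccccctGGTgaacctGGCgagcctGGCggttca
Col3a1: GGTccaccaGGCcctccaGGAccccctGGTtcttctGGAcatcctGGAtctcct
Col4a1: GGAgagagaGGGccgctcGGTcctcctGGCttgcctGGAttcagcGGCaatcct
Col6a1: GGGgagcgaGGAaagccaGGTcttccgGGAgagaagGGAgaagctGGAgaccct
Col12a1: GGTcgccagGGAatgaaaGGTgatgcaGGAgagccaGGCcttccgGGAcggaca
Col14a1: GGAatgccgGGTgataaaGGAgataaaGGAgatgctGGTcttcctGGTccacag
In type IV chains the repeat is broken at many places. The 84-base coding exon 9 of Col4a1, at chr8:11244486-11244569 on the minus strand, is shown as an example: the spacing between glycine codons in capitals is uneven.
Col4a1 exon 9: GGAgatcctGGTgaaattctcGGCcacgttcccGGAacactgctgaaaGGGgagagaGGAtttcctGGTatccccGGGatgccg

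Counted over the proteins of the annotated coding transcripts, where a run means at least 5 consecutive glycine-led triplets, the fibrillar and type IV chains differed in how the repeat is divided. The longest run held 216 to 344 triplets in the 11 fibrillar chains, which had 2 or 3 runs each. Col3a1 had the longest run, of 344 triplets, and Col1a1 had 338. The 6 type IV chains had 22 to 27 runs, and their longest run held 39 to 66 triplets. The short chain members each had 9 runs, with a longest of 59 or 60 triplets. The multiplexins had 11 and 14 runs, both with a longest of 30. Types XXVI and XXVIII had 2 and 17 runs, with a longest of 23 and 28. Type VI, transmembrane and FACIT chains overlapped in both counts. Type VI chains had 3 to 5 runs with a longest run of 37 to 87 triplets, and transmembrane chains 5 to 7 runs with a longest run of 40 to 44. In the FACIT class Col12a1, Col14a1 and Col20a1 had a longest run of 32 triplets, Col9a1, Col9a2, Col9a3 and Col22a1 had one of 113, Col16a1 had 21 runs with a longest of 52, and Col19a1 had 11 runs with a longest of 57. Exon lengths were counted over the coding exons from the start of the first run to the end of the last, including exons that break the repeat. Of these, 56.6% were exactly 54 bases long in fibrillar genes, 40.6% in FACIT genes and 4.67% in type IV genes.

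**Figure D1:**
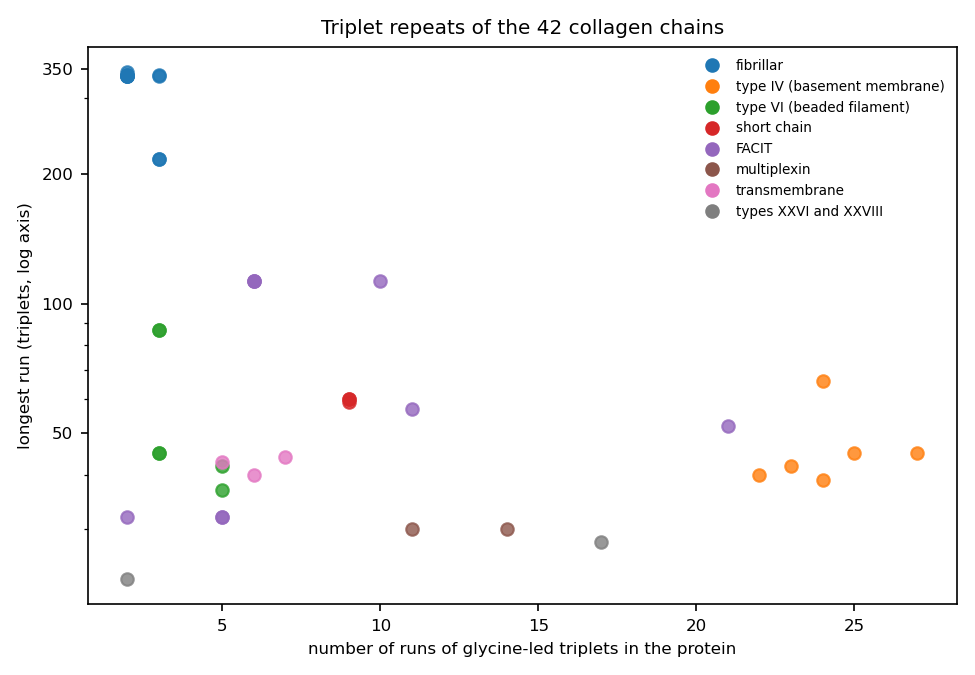
Number of glycine-led repeat runs (horizontal axis) and triplets in the longest run (vertical log axis) for each of the 42 collagen chains, colored by class; the 11 fibrillar chains sit at the upper left with runs of 216 to 344 triplets, and the 6 type IV chains at the lower right with 22 to 27 runs. Points of equal value overlap.

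Several members lie next to each other in the genome. Col4a1 (chr8:11198423-11312826, minus strand) and Col4a2 (chr8:11312805-11449287, plus strand) run in opposite directions and overlap by 22 bases at their starts. Col4a3 and Col4a4 on chromosome 1 start 72 bases apart, and Col4a5 and Col4a6 on chromosome X start 1309 bases apart, also in opposite directions. Col3a1 (chr1:45311538-45349706) and Col5a2 (chr1:45374321-45503282) are 24.6 kb apart. Col6a4, Col6a5 and Col6a6 follow one another on chromosome 9. Whether strand was used in counting is not given in the sources used here, so reads from the short overlap of Col4a1 and Col4a2 could not be assigned with certainty.

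Depth ranged from 8.98 M to 20.96 M counts (M, mega) between libraries and from 15.3 M to 33.7 M between columns. The summed Dsg1a, Dsg1b and Dsg1c level, in CPM (the count as a share of the TMM-scaled library total, in parts per M), was 723 to 933 in WT, 371 to 492 in HET and 0.103 to 0.902 in KO columns, in the order of the labels. For single libraries CPM was taken on the plain library total, without TMM scaling. The 2 libraries of WT replicate 2 (title number 35) differ in sex-linked transcripts, with 0.275 and 574 CPM of Xist and 338 and 0.157 CPM of Y-linked genes. They were therefore not libraries of 1 animal. Their Col1a1 levels were 7959 and 5800 CPM, and their members differed by a median of 0.30 on the absolute log2 scale, where the libraries of the other 8 repeated numbers differed by 0.06 to 0.10. KO replicate 4 stood apart from every other column in the collagen genes, as described below. Counts of called members are therefore also given without these columns.

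The share of counts taken by collagen transcripts differed between genotypes by less than the spread between columns. The 42 members together held 3.41 ± 0.62% of counts in WT (SD, n = 5), 3.21 ± 0.65% in HET and 2.83 ± 0.66% in KO. Col3a1, Col1a1 and Col1a2 alone made up 76.7 ± 1.3% of the collagen counts in WT, 77.1 ± 1.6% in HET and 74.6 ± 3.3% in KO. In bulk skin, fewer cells of a type and less RNA per cell cannot be told apart.

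Levels between genes were compared as CPM per kilobase of exon (CPM per kb). In WT the fibrillar class summed to 3073 ± 658 CPM per kb (SD, n = 5), the type VI class to 406 ± 81, the type IV class to 199 ± 41, the FACIT class to 107 ± 20 and the multiplexins to 53.2 ± 9.3. Types XXVI and XXVIII summed to 9.69 ± 1.21, the transmembrane class to 9.37 ± 1.44 and the short chain class to 5.34 ± 1.45 CPM per kb. The ranges of the transmembrane class and of types XXVI and XXVIII overlapped. Divided by the longest transcript in place of all exons, the fibrillar sum was 4891 CPM per kb and that of types XXVI and XXVIII 27.4, while the order of the 5 leading classes did not change.

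**Figure D2:**
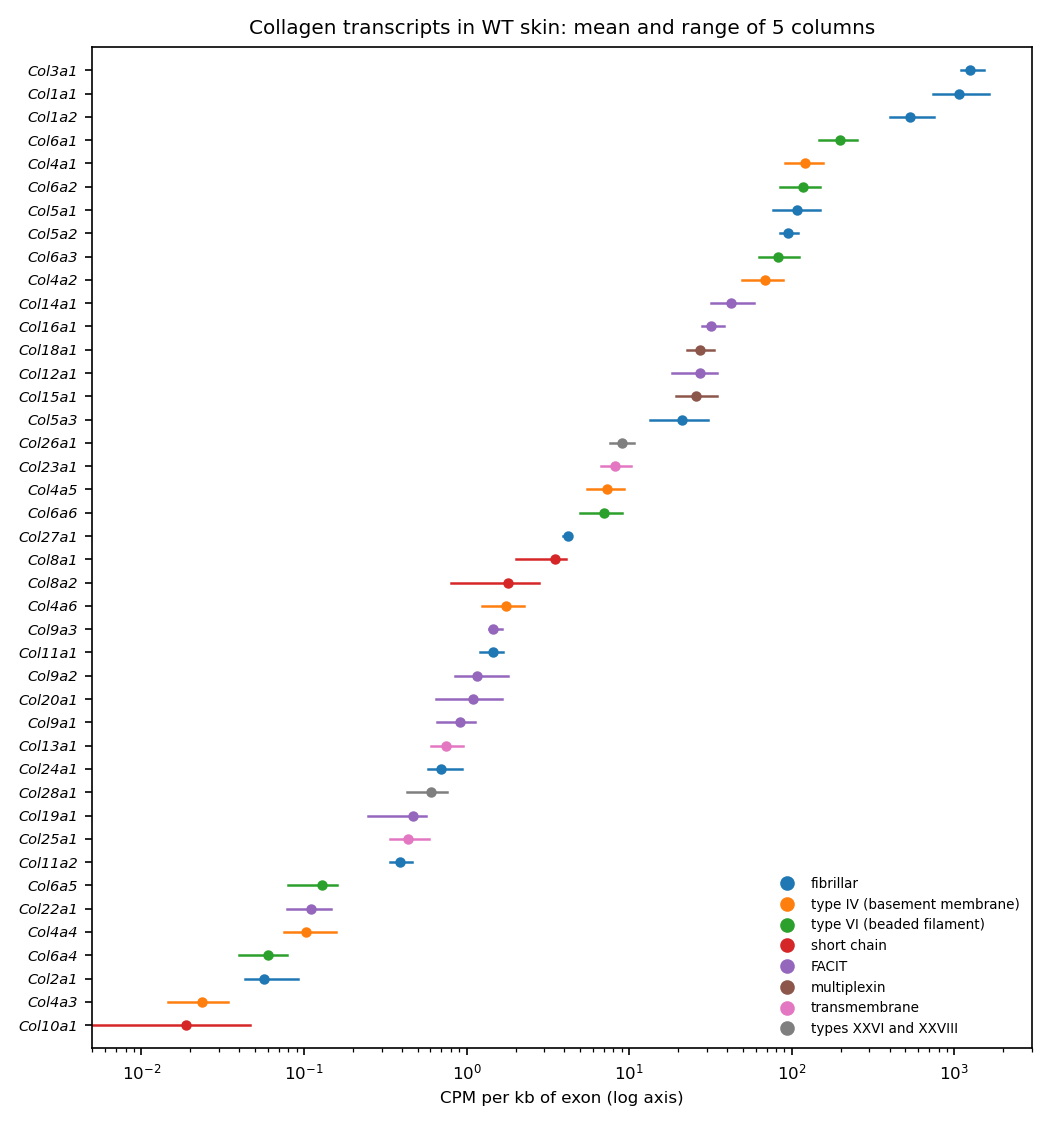
WT level of each of the 42 collagen genes in CPM per kb of exon on a log axis, ordered from highest to lowest and colored by class; the point is the mean and the line the range of 5 columns, and the line of Col10a1 runs to the edge because 1 column had no count. Levels run from 1238 CPM per kb for Col3a1 to 0.0187 for Col10a1.

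Among single genes Col3a1, the chain of type III collagen, was highest at 1238 ± 165 CPM per kb in WT, followed by Col1a1 at 1070 ± 337 and Col1a2 at 535 ± 127, the α1 and α2 chains of type I collagen. Col3a1 and Col1a1 overlapped in their ranges, as did Col1a1 and Col1a2, and the order of Col1a1 and Col1a2 turned when the longest transcript was used. The lowest of the Col1a2 values, 401 CPM per kb, lay above the highest value of the next gene, Col6a1, at 251. Col6a1, Col4a1, Col6a2, Col5a1, Col5a2, Col6a3 and Col4a2 followed at means of 199 down to 68.8 CPM per kb, each overlapping its neighbor in this order. Genes best known from cartilage were spread over the lower part of this order: Col9a3 at 1.46 CPM per kb (rank 25 of 42), Col11a1 at 1.46 (rank 26), Col9a2 at 1.16 (rank 27), Col9a1 at 0.906 (rank 29), Col11a2 at 0.388, Col2a1 at 0.0569 and Col10a1 at 0.0187. Of the 10 cartilage markers 9 were in the table and 5 were tested, and the list summed to 33.04 to 68.3 CPM in WT columns. Sox9, which is also a factor of hair follicles, and Hapln1 made up most of it, with WT means of 21.8 and 17.2 CPM, followed by Acan at 1.87, Comp at 1.12 and Cnmd at 0.574 CPM. Matn1, Matn3, Ucma and Epyc stayed below 0.5 CPM in every column. The part of cartilage in the collagen values was not tested. The dermal fibroblast markers summed to 2755 to 3192 CPM in WT columns, and the epidermal markers to 57753 to 79161 CPM, so both layers of skin were represented. Skeletal muscle markers summed to 12153 to 21132 CPM in the same columns, so muscle was in the samples too. The part of muscle in the collagen levels was not tested.

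No collagen gene passed the test in KO against WT. Of the 40 members tested, 0 reached an adjusted p of 0.1 with an absolute log2 fold change of at least 1, where 0.322% of all 17094 genes tested did, and 0 reached an adjusted p of 0.1 alone, against 1.15% of all genes (edgeR quasi-likelihood test, Benjamini-Hochberg). At an unadjusted p below 0.05 there were 2 of 40 members, against 19.3% of all genes. In 0 of 40 members did the 5 KO columns lie wholly outside the 5 WT columns, which was the case for 3.37% of all genes. The median log2 fold change of the members was -0.18 and that of all genes -0.01, with 10 members above 0 and 30 below. Beside it, the 10 dermal fibroblast markers had a median of -0.30, with 9 below 0. Of these, 5 had an unadjusted p below 0.05 and 2 (Lox and Prrx1) had groups that did not overlap. Other marker lists also had negative medians: cartilage -0.33, bone -0.33, tendon -0.27, Schwann cell -0.16, skeletal muscle -0.14, and pericyte and smooth muscle -0.11. Endothelial markers stood at 0.06 and epidermal markers at 0.16. The 6 adipocyte markers had a median of 1.49, all 6 above 0, with 2 at an unadjusted p below 0.05. Their groups overlapped, and in HET against WT their median was 1.14. They summed to 6056 CPM in KO replicate 4 and 798 to 1874 in the other KO columns. With the dermal fibroblast score of each column as a covariate 27 of the 40 members stood above 0. The part of these cells in the collagen values was not tested.

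The smallest adjusted p of the 40 members in KO against WT was 0.236, for Col20a1. The 95% interval lay within 1 log2 unit of 0 for 35 of the 40, the others being Col20a1, Col26a1, Col2a1, Col8a1 and Col9a1. The background count itself depends on single columns: 197 genes reached an adjusted p of 0.1, but 29 without WT replicate 2 and 1878 (10.9%) without KO replicate 5, and 1195 (7.18%) with title number 35 kept as 2 columns. The number of members was 0 in each. At an unadjusted p below 0.05 the 2 members became 0 without WT replicate 2, 4 without WT replicate 1 or without KO replicate 1, 3 or 5, and 1 without WT replicate 3 or KO replicate 2 or 4.

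HET against WT also gave no called member. The counts were 0 of 40 at both adjusted thresholds, as for all genes (0% and 0%), and 2 of 40 at an unadjusted p below 0.05, against 1.58% of all genes. These 2 became 1 without WT replicate 1, 2, 3 or 4, without any single HET replicate, or without KO replicate 3 or 5. The count was 0 in title series 2 alone, against 1.68% of all genes. With only the 2 genotypes fitted it was 4, against 2.63% of all genes. In this comparison 0 of 40 members had groups that did not overlap, against 0.374% of all genes. The median log2 fold change was -0.09, with 10 members above 0, and every member had an adjusted p of 1.00. In KO against HET 0 of 40 members were called, against 0.181% of all genes, and 0 reached an adjusted p of 0.1, against 0.333%. At an unadjusted p below 0.05 there were 4 of 40, against 16.0% of all genes, which became 0 without HET replicate 3, 1 without HET replicate 1 and 2 without KO replicate 4 or 5, and 0 of 40 had groups that did not overlap, against 2.25%. The median was -0.12, with 12 members above 0, and the smallest adjusted p was 0.252, for Col4a6. The KO and HET comparisons share WT columns, and the 2 KO comparisons share KO columns.

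**Figure D3:**
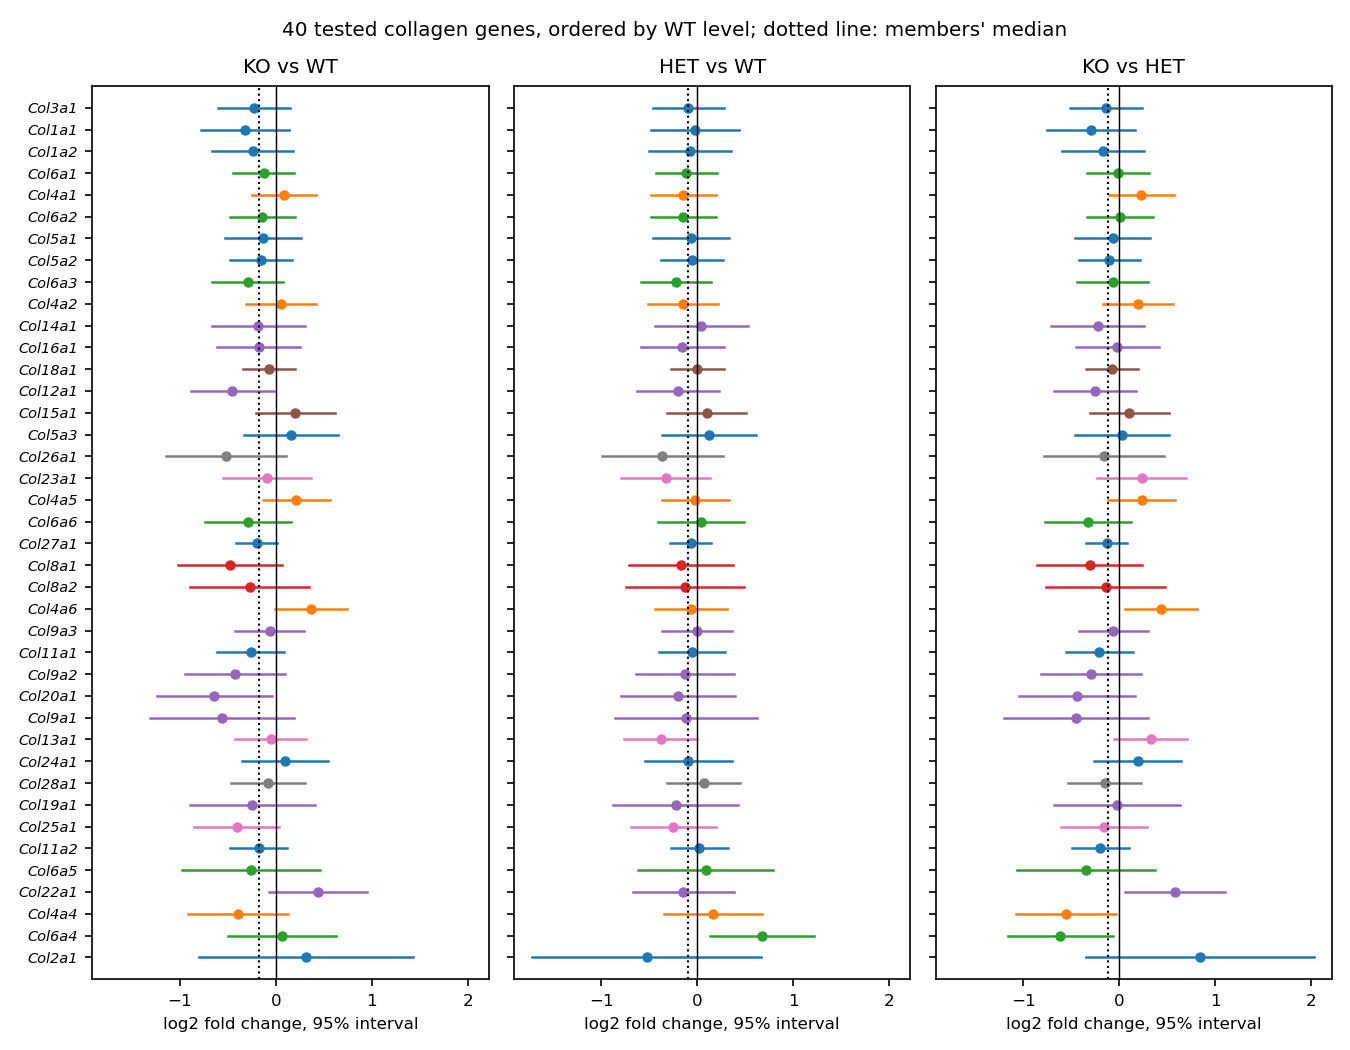
Log2 fold change (horizontal axis) with its 95% interval for the 40 tested collagen genes, ordered by WT level and colored by class as in the plot of WT levels, in KO vs WT, HET vs WT and KO vs HET; the dotted line is the members' median, at -0.18, -0.09 and -0.12. No member passed the adjusted threshold in any panel.

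By class, the fibrillar genes had a median log2 fold change of -0.18 in KO against WT (3 of 11 above 0), type IV genes 0.09 (4 of 5 above 0), type VI genes -0.20 (1 of 6), FACIT genes -0.25 (1 of 9), short chain genes -0.37 (0 of 2), transmembrane genes -0.09 (0 of 3), multiplexins 0.07 (1 of 2) and types XXVI and XXVIII -0.30 (0 of 2). Without KO replicate 4 the median was -0.11 for fibrillar, 0.01 for type IV (6 genes tested), -0.10 for type VI, -0.13 for FACIT, -0.34 for short chain, 0.041 for transmembrane and 0.056 for multiplexin genes and -0.18 for types XXVI and XXVIII, and the members' median went from -0.18 to -0.07. Without WT replicate 4, the column with the highest value in 16 of the 40 tested members, it was -0.10. Without WT replicate 2 it was -0.17, with 0 members at an unadjusted p below 0.05. In KO against HET the members' median was 0.02 without KO replicate 4, and in HET against WT it was -0.01 without WT replicate 4.

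The fibrillar genes were led by Col3a1 and Col1a1. Col3a1 read 10798, 11277, 11433, 14852 and 12421 CPM in WT replicates 1 to 5, 13378, 8624, 10573, 10738 and 13642 in HET, and 13010, 11339, 10735, 6267 and 10545 in KO. KO replicate 4 was the lowest of the 15 columns. KO replicates 3 and 5 lay below every WT column but within the HET range, and KO replicates 1 and 2 lay within both ranges. The log2 fold change of Col3a1 in KO against WT was -0.23 (SE 0.18, adjusted p = 0.476). Col1a1 read 4829, 6571, 7180, 10659 and 5870 CPM in WT, 8431, 5182, 6671, 5791 and 8471 in HET, and 7558, 6139, 5952, 3902 and 4589 in KO. WT replicate 4 was the highest and KO replicate 4 the lowest column, and the genotypes overlapped. Its log2 fold change was -0.32 in KO against WT (SE 0.22, adjusted p = 0.419) and -0.02 in HET against WT. Col5a1 and Col5a2, chains of the type V collagen that is built into type I fibrils, had log2 fold changes of -0.13 (SE 0.19) and -0.15 (SE 0.15). Col27a1 was the steadiest member in WT, with a coefficient of variation of 5.02%, against a median of 20.9% over the 35 members with a mean of at least 50 counts.

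The type IV genes encode the chains of the basement membrane network. Col4a1 read 681, 946, 942, 1159 and 792 CPM in WT, 1012, 750, 851, 678 and 794 in HET, and 1136, 774, 889, 1210 and 790 in KO. Its KO and WT columns overlapped, with KO replicate 4 at the top, and its log2 fold change was 0.09 (SE 0.16, adjusted p = 0.784). Col4a2 read 328, 491, 492, 585 and 382 CPM in WT, 523, 397, 425, 330 and 379 in HET, and 569, 360, 441, 597 and 393 in KO, with a log2 fold change of 0.05 (SE 0.17) in KO against WT. Col4a6, a chain of epithelial basement membranes, had the smallest unadjusted p of all members in KO against HET. It read 9.90, 13.9, 13.3, 18.01 and 14.5 CPM in WT, 11.5, 11.05, 12.1, 18.9 and 13.1 in HET, and 19.7, 17.3, 17.8, 22.3 and 12.8 in KO. Of the KO columns, 4 lay above 4 of the 5 HET columns, while KO replicate 5 and HET replicate 4 crossed over. Its log2 fold change was 0.44 in KO against HET (SE 0.18, adjusted p = 0.252) and 0.37 in KO against WT (SE 0.18, adjusted p = 0.268). Col4a3 held 112 counts in all columns together and was not tested.

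The type VI genes Col6a1, Col6a2 and Col6a3 encode the chains of the beaded filaments. Col6a1 read 640, 915, 909, 1101 and 798 CPM in WT, 994, 698, 778, 697 and 857 in HET, and 1018, 737, 859, 636 and 745 in KO, with a log2 fold change of -0.13 in KO against WT (SE 0.15, adjusted p = 0.656). Col6a2 read 700, 1031, 1017, 1238 and 918 CPM in WT, 1113, 745, 838, 769 and 964 in HET, and 1146, 738, 994, 722 and 853 in KO, with a log2 fold change of -0.14 (SE 0.16). WT replicate 4 was the highest column of both genes, and their genotypes overlapped. Col6a4, a rarer type VI chain, had the smallest unadjusted p in HET against WT. It read 0.340, 0.667, 0.537, 0.582 and 0.453 CPM in WT, 1.07, 0.744, 0.883, 0.586 and 0.861 in HET, and 0.421, 0.848, 0.383, 0.617 and 0.476 in KO. These levels rest on 244 counts in all columns, HET replicate 4 lay within the WT range, and the log2 fold change was 0.67 (SE 0.26, adjusted p = 1.00).

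Among the FACIT genes Col14a1 and Col16a1 were highest per length in WT. Col14a1, whose product binds the surface of type I fibrils, read 246, 295, 307, 412 and 224 CPM in WT, 373, 188, 286, 291 and 390 in HET, and 264, 390, 249, 163 and 242 in KO, with a log2 fold change of -0.18 in KO against WT (SE 0.23). Col16a1 read 189, 202, 193, 257 and 226 CPM in WT, 235, 133, 167, 200 and 222 in HET, and 254, 180, 223, 99.1 and 189 in KO, with a log2 fold change of -0.18 (SE 0.20). KO replicate 4 was again the lowest column of both. Col20a1, a low-level FACIT gene, had the smallest unadjusted p of all members in KO against WT. It read 3.35, 6.14, 5.34, 8.48 and 4.78 CPM in WT, 6.90, 4.09, 3.61, 3.90 and 5.93 in HET, and 3.79, 2.58, 5.23, 1.90 and 4.57 in KO. The KO and WT columns overlapped, and the log2 fold change was -0.64 (SE 0.28, adjusted p = 0.236). Col12a1, also of this class, stood at -0.46 (SE 0.20, adjusted p = 0.239).

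The remaining classes were represented by Col8a1, Col18a1, Col23a1 and Col26a1. Col8a1, a short chain collagen of vessels and other matrices, read 15.7, 30.8, 28.6, 30.4 and 32.1 CPM in WT, 32.7, 26.1, 18.1, 24.6 and 21.01 in HET, and 19.96, 10.95, 28.4, 13.8 and 25.9 in KO (log2 fold change in KO against WT -0.48, SE 0.25, adjusted p = 0.311). Col18a1, the multiplexin whose C-terminal fragment is endostatin, read 169, 198, 202, 234 and 159 CPM in WT, 198, 239, 175, 163 and 186 in HET, and 229, 176, 188, 164 and 158 in KO (log2 fold change -0.07, SE 0.13). Both genes overlapped between genotypes. Col23a1, a transmembrane collagen, read 47.4, 42.02, 38.6, 58.8 and 48.1 CPM in WT, 38.4, 40.7, 33.5, 38.1 and 35.99 in HET, and 58.2, 24.6, 56.2, 26.3 and 54.6 in KO. Col26a1 read 75.7, 68.6, 62.2, 87.1 and 77.9 CPM in WT, 58.3, 56.99, 55.1, 52.6 and 65.6 in HET, and 70.7, 23.7, 77.6, 22.2 and 64.5 in KO. In both genes KO replicates 2 and 4 were far below the other KO columns, which lay within the WT range. The log2 fold change of Col26a1 in KO against WT was -0.52 (SE 0.29, adjusted p = 0.336). Col10a1, a marker of hypertrophic cartilage, held 54 counts in all columns and was not tested.

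**Figure D4:**
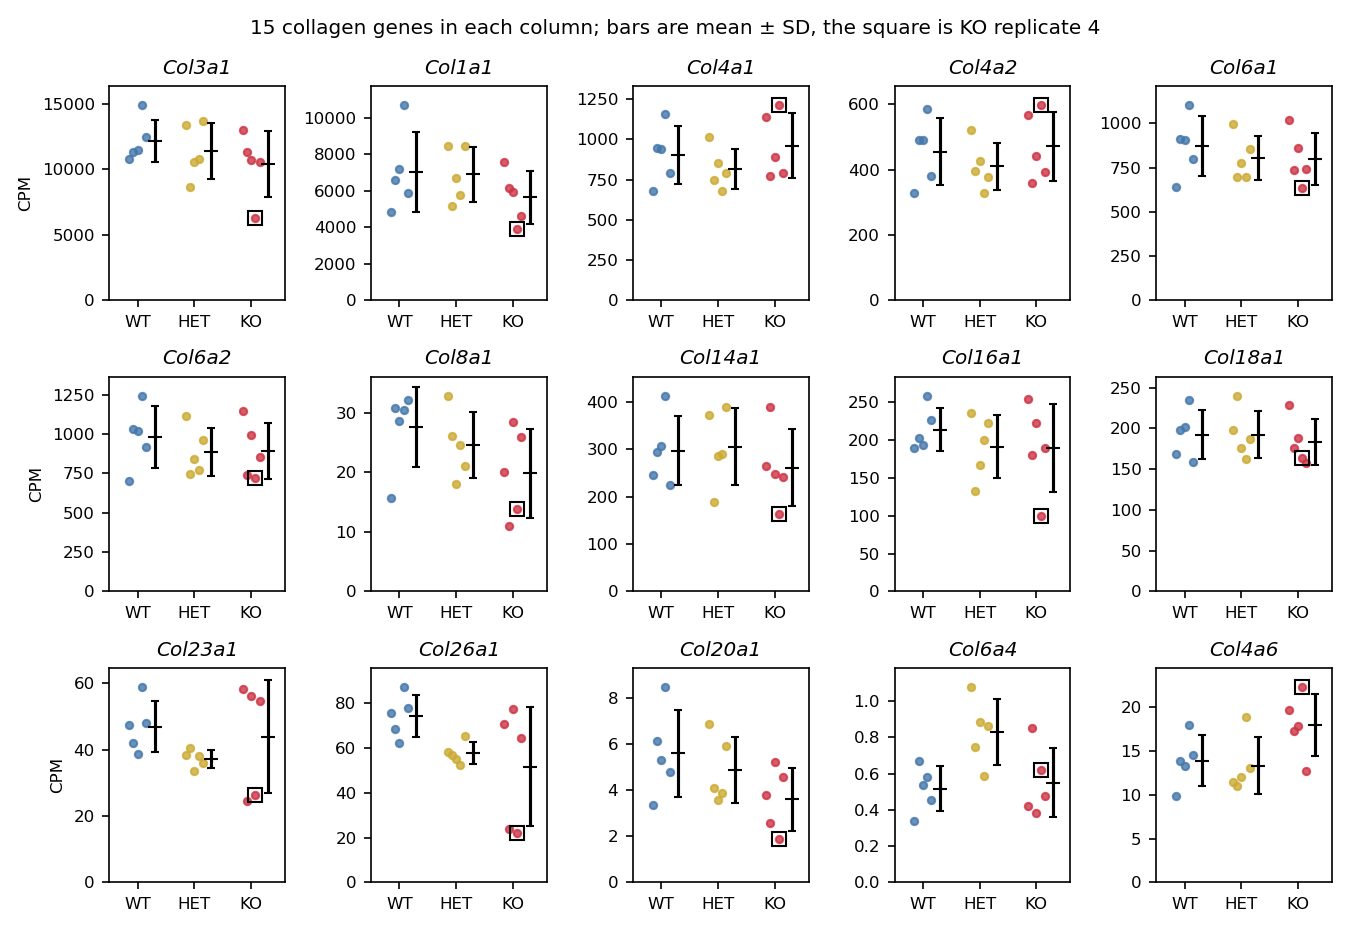
CPM (linear axes from 0) of 15 collagen genes in each of the 5 columns per genotype, with mean and SD beside the points; the black square marks KO replicate 4, lowest of all columns for Col3a1 at 6267 CPM and highest for Col4a1 at 1210 CPM. Genotypes overlap in every panel.

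Single columns stood apart in several collagen classes. Taken as the mean log2 difference from each gene's own mean, over the 35 members with a mean of at least 50 counts, WT replicate 4 was at 0.41 for fibrillar and 0.50 for type VI genes. KO replicate 4 was at -0.49 for fibrillar, -0.50 for type VI and -0.92 for FACIT genes, but at 0.56 for type IV genes, the highest of all columns. It was the lowest column for 19 of the 40 tested members and the highest for 6. In that column the dermal fibroblast markers summed to 1734 CPM, against 2368 to 3218 in the other 14 columns, the adipocyte markers to 6056 CPM, against 564 to 4471, and the endothelial markers to 622 CPM, against 292 to 495. Their part in the collagen values was not tested. With the dermal fibroblast score of each column as a covariate the members' median was 0.06 in KO against WT, 0.08 in KO against HET and -0.03 in HET against WT. The 10 genes of that score hold no collagen gene, but Lox, Dpt, Lum and Dcn also stand in the lists of collagen partners below.

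**Figure D5:**
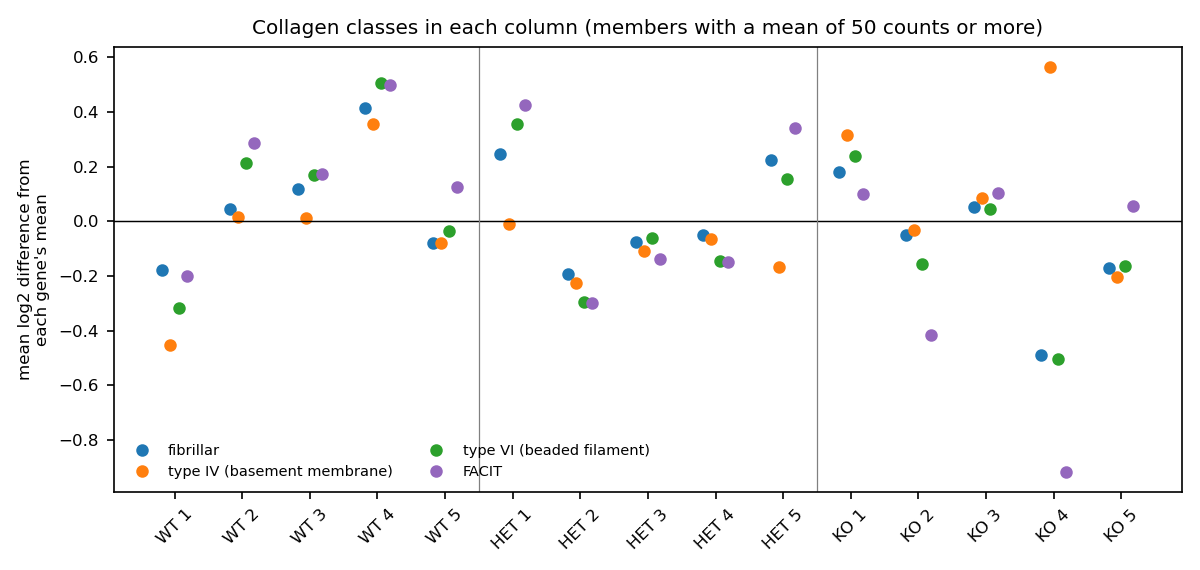
Mean log2 difference from each gene's mean over all columns (vertical axis) for fibrillar, type IV, type VI and FACIT collagens in each of the 15 columns; in KO replicate 4 type IV stands at 0.56 while fibrillar, type VI and FACIT stand at -0.49, -0.50 and -0.92.

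Levels per kb of a pair of chains were compared as ratios, in 3 cases within a type (Col1a2 to Col1a1, Col4a2 to Col4a1 and Col6a3 to Col6a1) and in 2 cases between types (Col3a1 to Col1a1 and Col12a1 to Col14a1), with an exact two-sided permutation test on the log2 ratio and Benjamini-Hochberg adjustment over 15 tests (5 ratios, 3 comparisons). The ratio of Col1a2 to Col1a1 was 0.509 ± 0.049 in WT (SD, n = 5), 0.482 ± 0.026 in HET and 0.528 ± 0.046 in KO. Divided by the longest transcript instead, it was 1.07, 1.01 and 1.11, so its absolute size depends on the length used while its change between genotypes does not. The ratio of Col4a2 to Col4a1 was the most even, at 0.566 ± 0.022 in WT, 0.566 ± 0.024 in HET and 0.553 ± 0.016 in KO. Col3a1 to Col1a1, types III and I, stood at 1.21 ± 0.24, 1.11 ± 0.08 and 1.24 ± 0.18. The ratio of Col6a3 to Col6a1 was 0.410 ± 0.025 in WT, 0.382 ± 0.019 in HET and 0.362 ± 0.033 in KO. It gave the smallest p of the family, an exact permutation p of 0.0397 for KO against WT, which was 0.437 after adjustment. KO replicate 1, at 0.413, lay inside the WT range of 0.386 to 0.440. The ratio of Col12a1 to Col14a1 was 0.654 ± 0.108 in WT, 0.566 ± 0.121 in HET and 0.570 ± 0.193 in KO. With all columns no ratio differed at an adjusted p of 0.1 or below in any comparison. Without KO replicate 1 the Col6a3 to Col6a1 ratio passed in KO against WT and in KO against HET, with an adjusted exact permutation p of 0.0595 in both. That replicate was the only KO column inside the WT range or the HET range of 0.367 to 0.415. Leaving it out therefore gave the smallest unadjusted p that the test can reach with the remaining columns.

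Genes that make, crosslink, bind or degrade collagen were counted as well. Of the 19 tested genes for folding and modification, 0 reached an adjusted p of 0.1 in KO against WT, against 1.15% of all genes, and 7 had an unadjusted p below 0.05, against 19.3% of all genes. Of these 19, 3 stood above 0 and 16 below in KO against WT, and the median log2 fold change was -0.25. Serpinh1, the collagen chaperone HSP47, had the smallest p of this list. Its mean was 1594 ± 131 CPM in WT (SD, n = 5) and 1220 ± 202 in KO, with ranges of 1416 to 1743 and 963 to 1442 that overlapped, and its log2 fold change was -0.38 (SE 0.13, adjusted p = 0.141). Of the 13 genes for maturation and crosslinking 4 stood above 0, with a median of -0.15. Here Lox, which oxidizes lysines for crosslinks, was at 299 ± 53 CPM in WT and 255 ± 10 in KO. Its WT columns ran from 267 to 393 CPM and its KO columns from 241 to 264, so they did not overlap, which was so for 1 of the 13 genes and 3.37% of all genes. Its log2 fold change was -0.23 (SE 0.10, adjusted p = 0.224).

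The 9 tested collagen receptor genes had a median of -0.20, with 3 above 0. Itga10, the α chain of a collagen-binding integrin, came nearest to the threshold of all these genes, at 2.80 ± 0.68 CPM in WT and 1.65 ± 0.38 in KO (log2 fold change -0.76, SE 0.20, adjusted p = 0.102). The 10 turnover genes had a median of 0.01, with 5 above 0. Mmp9, a gelatinase also made by inflammatory cells, was at 0.885 ± 0.510 CPM in WT and 2.15 ± 1.33 in KO (log2 fold change 1.25, SE 0.45, adjusted p = 0.164). Of the 18 fibril partners 3 stood above 0, with a median of -0.14, and Fmod, the proteoglycan fibromodulin, was at 16.2 ± 4.7 and 10.5 ± 3.8 CPM (log2 fold change -0.63, SE 0.27, adjusted p = 0.228). In each of the 5 lists 0 genes reached an adjusted p of 0.1 in KO against WT, HET against WT or KO against HET, where 1.15%, 0% and 0.333% of all genes did. At an unadjusted p below 0.05 in KO against WT the 5 lists held 7, 1, 1, 2 and 3 genes in the order given, and groups that did not overlap were found for Lox and, among the fibril partners, for Sparc. In HET against WT the medians of the 5 lists were -0.11, -0.07, -0.06, -0.03 and 0.06 in the order given.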

How the data were processed

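The authors deposited raw counts per gene symbol for 24 libraries. The submitters' processing notes name STAR, HTSeq and the human build hg19, although the symbols are mouse symbols; versions, annotation, strand setting and filters are not given in the sources used here. Counts of libraries sharing a title number were summed into 15 columns. Genes kept by filterByExpr entered edgeR 4.0.16 in R 4.3.3 (quasi-likelihood F test, TMM factors, robust dispersions, all 3 genotypes in 1 fit), and p-values were adjusted over all 17094 genes. Calls required both an adjusted p no larger than 0.1 and a log2 fold change of at least 1 in size. The fit was tested on simulated counts in which 200 genes were changed in KO, each by more than any collagen gene here. That does not measure its power for smaller changes. Exon lengths, positions and coding sequences come from GENCODE vM21 on GRCm38, and the authors' build is unknown. Named were members with an adjusted p of 0.1 or below (none), the 2 highest per kb in WT of each class (1 for classes of 3 or fewer), the member with the smallest p in each comparison, and the companion gene with the smallest p in each list; Col1a2, Col5a1, Col5a2, Col12a1, Col27a1 and others given briefly were added after their values were seen. Members, lists and tests were chosen with earlier results of these data known. Alternatives included DESeq2 1.42.0, other scalings and filters, single title series, marker score covariates, a length offset and leaving out each replicate.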

Additional observations from a re-analysis of the deposited data

Results flagged for a closer look

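Over 84 groups of 5 columns (15 collagen genes, 8 class sums and 5 chain ratios in each of 3 genotypes), a column was marked where its gap to the nearest other column was more than 0.71 of the group's whole range. This was met by 5 groups, and chance marks about 1 in 20 groups, or 4.2 here. In WT, replicate 1 was far below the others for Col8a1 (15.7 CPM, next 28.6, gap 0.784 of the range) and for the short chain class, of which Col8a1 is the largest part (19.4 CPM, next 37.8, gap 0.847). In HET, replicate 4 was far above for Col4a6 (18.9 CPM, next 13.1, gap 0.738) and replicate 2 for the ratio of Col12a1 to Col14a1 (0.773, next 0.556, gap 0.714). In KO, replicate 2 was far below for the ratio of Col4a2 to Col4a1 (0.524, next 0.556, gap 0.793).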

How the results depend on the processing

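No collagen gene was called in any comparison under any of the 28 alternatives. With the 24 libraries as separate samples, which counts libraries of 1 title number more than once, 5 members reached an adjusted p of 0.1 in KO vs WT (Col12a1, Col20a1, Col25a1, Col4a6 and Col8a1) and 2 in KO vs HET (Col4a4 and Col4a6); no other alternative gave any. At an unadjusted p below 0.05 the 2 members in KO vs WT became 8 with separate libraries, 6 with the length offset and 0 with the dermal covariate. The members' median log2 fold change ran from -0.24 to 0.06 in KO vs WT, -0.27 to -0.01 in HET vs WT and -0.18 to 0.08 in KO vs HET. With replicates left out in turn it ran from -0.24 to -0.07, -0.16 to -0.01 and -0.18 to 0.02. It was above 0 with the dermal score as covariate (KO vs WT, 0.06; KO vs HET, 0.08), and in KO vs HET also in title series 1 alone and without KO replicate 4 (0.02 each). The cause was not tested. The Col4a2 to Col4a1 difference in HET vs WT, 0.0005 on the log2 scale, was -0.014 in title series 2 alone and -0.00715 with title number 35 as 2 columns. With replicates left out, it ran from -0.019 to 0.018, the Col3a1 to Col1a1 difference in KO vs WT from -0.042 to 0.13, and the Col12a1 to Col14a1 difference in KO vs HET from -0.19 to 0.22, highest without KO replicate 2. The Col6a3 to Col6a1 difference ran from -0.23 to -0.15 in KO vs WT and -0.13 to -0.043 in KO vs HET. Without KO replicate 1, the only KO column overlapping the others, its adjusted exact permutation p was 0.0595 in both, which passes 0.1. Longest transcript lengths moved the WT class levels to 4891 (fibrillar), 517 (type VI), 7.28 (short chain), 129 (FACIT), 66.0 (multiplexin) and 27.4 CPM per kb (types XXVI and XXVIII). Log2 fold changes in KO vs WT turned sign, with no adjusted p below 0.1, under the dermal covariate for Col3a1 (0.13), Col1a1 (0.022), Col6a1 (0.10), Col6a2 (0.11), Col14a1 (0.11), Col16a1 (0.28), Col18a1 (0.0041), Col23a1 (0.31), Col26a1 (0.022) and Col6a4 (-0.13). They also turned in title series 1 alone for Col4a1 (-0.17), Col4a2 (-0.22) and Col6a4 (-0.29), for Col4a2 with separate libraries (-0.0443) and with total counts (-0.00369), and for Col6a4 with the muscle covariate (-0.038). With replicates left out in turn, ranges crossing 0 were -0.00993 to 0.19 for Col4a1, -0.048 to 0.16 for Col4a2, -0.17 to 0.0081 for Col18a1, -0.22 to 0.054 for Col23a1 and -0.17 to 0.18 for Col6a4. No paired analysis was possible because no title number occurs in more than 1 genotype.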
